A study of Mus musculus with 6 samples.

Results

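The genes described here are 38 genes of the heart muscle cell: the proteins of the contractile apparatus, the proteins that move calcium in and out of its stores, and genes whose transcripts are used as readouts of cardiac stress. They were chosen by gene symbol from a fixed list, with earlier results of these data known. All 38 were found among the 17714 genes of the deposited table. The libraries came from 6 samples of total RNA from mouse heart that were labelled lymphatic endothelial cells, 3 MI (myocardial infarction) and 3 sham, all WT and all at day 3. The study's title concerns a chemokine made by lymphatic endothelium, the growth of lymphatic vessels and the clearing of macrophages after infarction. The labels did not say whether whole heart tissue or isolated endothelial cells were used for these libraries, named serum-containing culture medium, and gave no sorting step, animal age, strain or number of animals. Nothing stated that the libraries of a group came from separate animals or cultures, so p-values measure the spread between these libraries only.

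Heart muscle cells contract when myosin heads pull on thin filaments of actin, tropomyosin and troponin within the sarcomere, a unit bounded by Z-discs. Contraction is set off by calcium released from the sarcoplasmic reticulum through ryanodine receptors and ends when the calcium pump SERCA2 takes it up again. Atrial and ventricular muscle cells use different myosin light chains, and natriuretic peptides, ankyrin repeat domain 1 and beta myosin heavy chain are widely used markers of loaded or injured rodent myocardium.

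The MI libraries held 21154342 to 21689333 estimated counts and the sham libraries 3206732 to 3591473. Library MI 1 stood apart from the other 2 MI libraries: the chi-square statistic per gene was 21.3 and 35.3 for the pairs with MI 1, 4.14 for MI 2 with MI 3, and 1.54 to 1.77 within sham. This statistic grows with depth when libraries differ by more than counting error, so MI and sham values cannot be compared directly. Levels are given as CPM, counts scaled to the library size after trimmed mean (TMM) adjustment, unless TPM, which also corrects for transcript length, is named. A count of 0 would allow a level of up to 0.156 to 0.159 CPM in MI and 0.742 to 0.828 CPM in sham (3 counts a library), for counting error only. Groups were compared by the quasi-likelihood test of edgeR, with p adjusted by the Benjamini-Hochberg method over 13370 genes, and a gene was called at an adjusted p below 0.05. Calls were common: 73.3% of all tested genes were called, 36.4% higher and 36.9% lower in MI, with a median log2 fold change of -0.01. Scaling by total count instead moved that median to -0.36 and the calls to 3549 higher and 6628 lower, beside 4861 and 4940.

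The label was set against transcripts used as lymphatic markers. Of 7 such genes, 6 were called lower in MI and 1, Pdpn, was called higher (202 ± 7.01 CPM in MI, 4.93 ± 0.960 CPM in sham). Which cells made these transcripts was not tested. Prox1, the transcription factor that specifies lymphatic endothelium, averaged 1.26 ± 0.456 CPM in MI and 7.12 ± 0.548 CPM in sham (SD, n = 3 each), and the lymphatic hyaluronan receptor Lyve1 averaged 12.5 ± 0.752 CPM in MI and 214 ± 3.89 CPM in sham. The summed level of 10 macrophage and monocyte markers was 18330 to 20210 CPM in MI and 3868 to 4101 CPM in sham. Transcripts of heart muscle were thus measured in RNA where markers of other cell types differed between the groups as well. In such bulk samples, fewer cells of a type and less RNA per cell cannot be told apart.

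Heart muscle transcripts were present in every library, and nearly all of them were lower in MI. Of the 38 genes, all passed the filter on low counts, 36 were called lower, 0 were called higher, and Myh7 and Atp2a2 were not called. Of all tested genes, 36.9% were called lower. No member was higher at an unadjusted p below 0.05 (0 genes) in this fit. DESeq2 called 1 gene, Atp2a2, higher, as did edgeR with the size factors of DESeq2, with no low-count filter and without MI 1 or MI 2. The median log2 fold change (MI minus sham) of the 38 genes was -3.75, with a range of -5.32 to 0.19. For 37 of the 38 genes the 3 MI libraries did not overlap the 3 sham libraries, against 76.1% of all tested genes. The exception was Nppb. When a change of more than 2-fold was tested, 35 genes were called lower, against a background of 15.3%. Among all tested genes only 2.00% had a log2 fold change of -3 or less.

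The 38 genes together made up 0.0805 ± 0.00150% of all counts in MI and 0.757 ± 0.00991% in sham (SD, n = 3 each). Much of what was left in MI came from 2 genes, chosen here after their values were seen: Atp2a2 and Tpm1 made up 44.7 ± 3.82% of the members' summed TPM in MI and 13.3 ± 0.398% in sham. Without these 2 genes, the members' share of counts was 0.0298 ± 0.00182% in MI and 0.616 ± 0.00501% in sham.

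**Figure D1:**
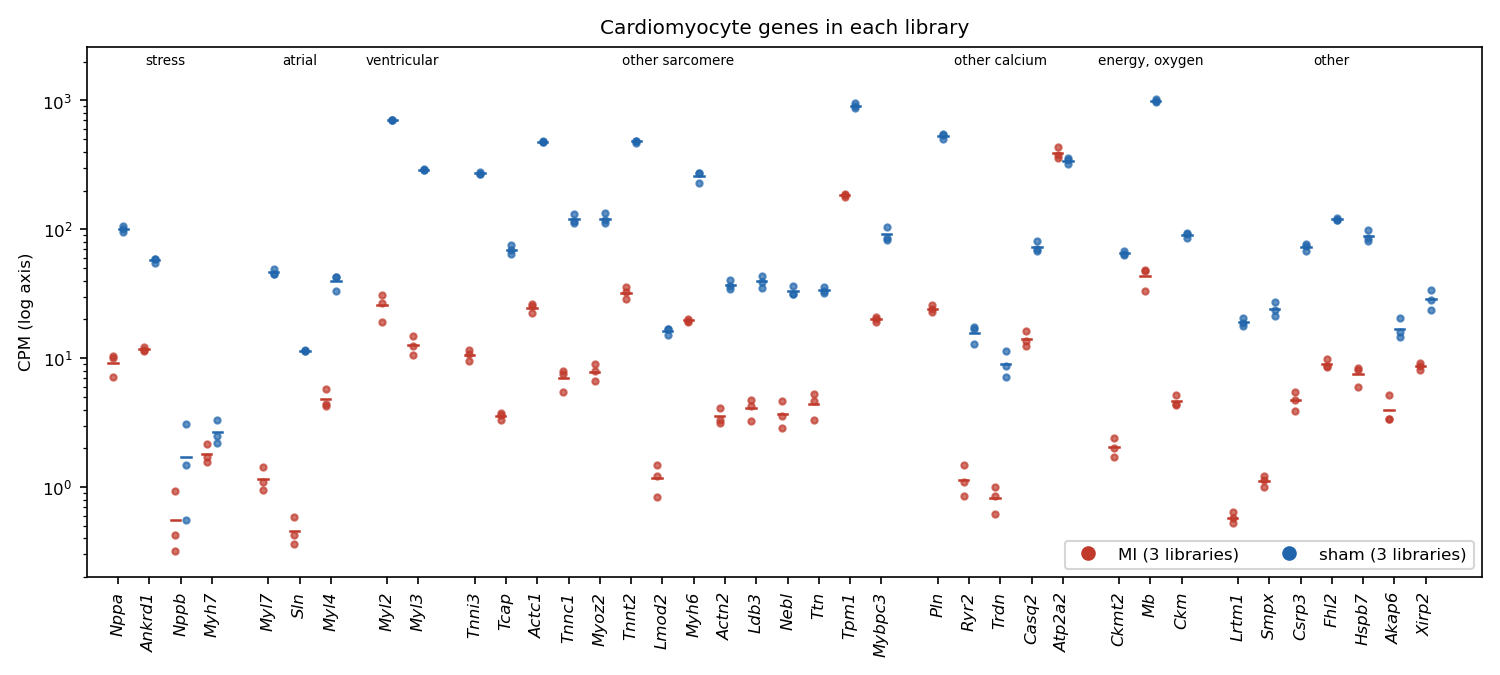
Level of each of the 38 genes in each library, in CPM on a log axis, with MI in red left of sham in blue; points are libraries and short bars are means of 3. The MI points lie below the sham points for all genes but Nppb, where they overlap, and Atp2a2, where they lie above.

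The order of levels changed between the groups. By TPM, the most abundant members in MI were Tpm1 (194 ± 5.02 TPM), which encodes a tropomyosin also made outside muscle, and Atp2a2 (149.5 ± 24.7 TPM), followed by Mb (71.0 ± 10.7 TPM), Myl2 (69.8 ± 12.3 TPM) and Tnnt2 (47.7 ± 2.82 TPM). Mb and Myl2 overlapped in MI. In sham the order began with Myl2 (2163 ± 8.59 TPM), Mb (1843 ± 64.1 TPM), Tpm1 (1283 ± 51.7 TPM) and Tnnt2 (793 ± 18.4 TPM), 4 genes that did not overlap. Atp2a2 stood second in MI and 15th in sham, with nearly equal TPM in both (149.5 ± 24.7 TPM in MI, 148 ± 8.36 TPM in sham). At the low end, Ryr2 (0.117 ± 0.0404 TPM), Lrtm1 (0.137 ± 0.0208 TPM) and Ttn (0.150 ± 0.0361 TPM) overlapped in MI, and Myh7 was the lowest in sham (0.850 ± 0.174 TPM), below Ttn (1.23 ± 0.0404 TPM).

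**Figure D2:**
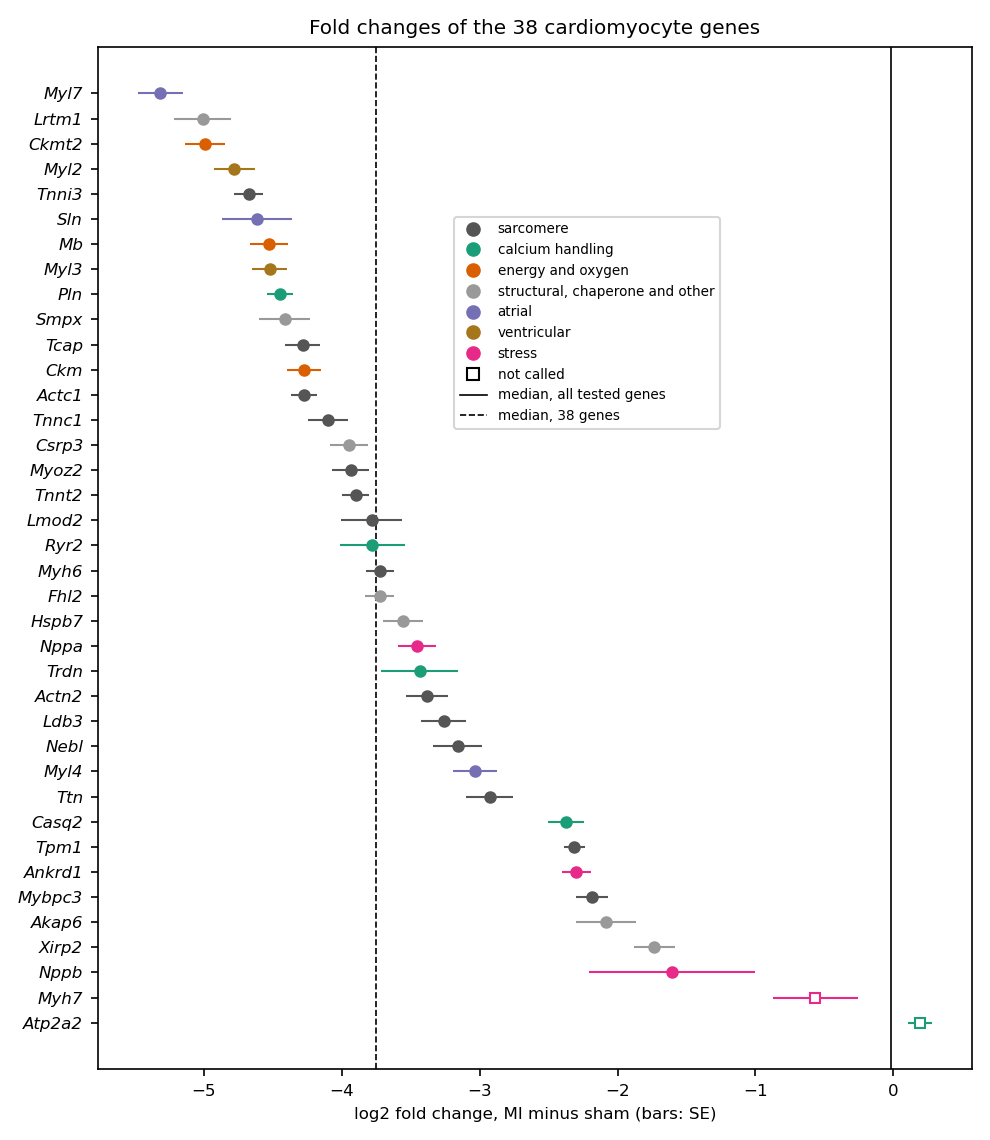
Log2 fold change (MI minus sham) of each of the 38 genes with its SE, ordered from the most negative; colours give the role, open squares mark the 2 genes not called, the solid line is the median of all tested genes and the dashed line that of the 38. The values run from -5.32 for Myl7 to 0.19 for Atp2a2.

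All 4 atrial genes fell, with a median log2 fold change of -4.03. Myl7, the atrial regulatory light chain, had 0.955, 1.43 and 1.09 CPM in MI, against 45.3, 49.3 and 45.3 CPM in sham. The groups lay far apart, and this was the most negative value of the list, with 39.9-fold lower levels in MI (log2 -5.32 ± 0.16 SE, adjusted p = 9.13e-11). Sln, encoding sarcolipin, a small inhibitor of SERCA found mainly in atria in the mouse heart, had 0.424, 0.583 and 0.363 CPM in MI, against 11.6, 11.3 and 11.3 CPM in sham. It was 24.5-fold lower, also without overlap, although the MI values rest on 7 to 11 counts a library. Myl4, the atrial essential light chain, had 5.73, 4.40 and 4.26 CPM in MI, against 42.3, 33.4 and 42.5 CPM in sham. It fell the least of the 3 (8.21-fold lower, log2 -3.04 ± 0.16 SE). Nppa, the 4th gene of the list, is described with the stress genes.

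The fold of Myl4 depended on the unit. On the TPM scale it was -4.46 in log2 terms, because the length that the deposited counts and TPM imply for Myl4 was 2.37 times as large in MI as in sham. The annotated protein-coding transcripts of this gene run from 486 to 943 bases. Only 0.780% of 12952 tested genes had an implied length that differed by over 0.5 log2 units in either direction. Among the other members, Ldb3 (0.41) and Tpm1 (0.24) had the next largest differences in implied length on the log2 scale.

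Both ventricular genes fell, with a median log2 fold change of -4.65. Myl2, the ventricular regulatory light chain, had 19.2, 30.8 and 27.0 CPM in MI, against 706, 700.1 and 709 CPM in sham. The sham libraries were nearly equal and MI 1 was the lowest of the MI libraries (27.5-fold lower, log2 -4.78 ± 0.15 SE, adjusted p = 1.05e-10). Myl3, the ventricular essential light chain, had 10.5, 14.9 and 12.5 CPM in MI, against 291, 290.0 and 292 CPM in sham (23.0-fold lower, log2 -4.52 ± 0.12 SE). MI 1 was again the lowest MI library, and the groups did not overlap.

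The mean log2 level (CPM + 0.5) of the atrial genes minus that of the ventricular genes was -2.38, -2.77 and -2.70 in MI, against -3.54, -3.58 and -3.52 in sham. The atrial genes were thus further below the ventricular genes in sham, by 0.93 log2 units. This difference was sensitive to the value added before taking logs, being 0.64 with 0.1 CPM, 1.46 with 2 CPM and 0.40 on the TPM scale. Each atrial light chain was also set against its ventricular counterpart. The log2 ratio of Myl7 to Myl2 was -3.96 ± 0.18 in MI and -3.90 ± 0.08 in sham (SD, n = 3 each, exact two-sided permutation p = 0.6). Its difference changed sign with the added value (-0.43 with 0.1 CPM, 0.75 with 2 CPM). With nothing added, the mean linear ratio was lower in MI, 0.0455 against 0.0662 in sham. The log2 ratio of Myl4 to Myl3 was -1.31 ± 0.43 in MI and -2.88 ± 0.19 in sham, a difference of 1.57 that was 0.39 on the TPM scale. With 3 libraries a group the exact test cannot go below 0.1, the value of this pair, and 0.12 after adjustment over the 6 gene pairs compared.

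The windows around the transcription start of Myl7 and Myl3 are printed since these 2 light chains mark opposite chambers and have 1 RefSeq start each. Each window holds 250 bases before the start and 50 after it, from RefSeq on GRCm38.p6. Myl7 lies at chr11:5896637-5898782, and its window is chr11:5898733-5899032 on the minus strand. Myl3 lies at chr9:110763678-110769802, and its window is chr9:110763428-110763727 on the plus strand. Capitals mark matches to the M-CAT element bound by TEAD factors, which reads CATTCC, to the GATA factor motif or to the CArG box bound by serum response factor, searched on both strands.
Myl7: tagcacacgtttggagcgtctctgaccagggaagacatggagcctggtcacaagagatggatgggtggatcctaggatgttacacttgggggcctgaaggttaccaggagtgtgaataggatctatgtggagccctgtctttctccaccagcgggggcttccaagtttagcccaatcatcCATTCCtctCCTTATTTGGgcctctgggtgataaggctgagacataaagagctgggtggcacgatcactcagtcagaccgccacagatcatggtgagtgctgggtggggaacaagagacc
Myl3: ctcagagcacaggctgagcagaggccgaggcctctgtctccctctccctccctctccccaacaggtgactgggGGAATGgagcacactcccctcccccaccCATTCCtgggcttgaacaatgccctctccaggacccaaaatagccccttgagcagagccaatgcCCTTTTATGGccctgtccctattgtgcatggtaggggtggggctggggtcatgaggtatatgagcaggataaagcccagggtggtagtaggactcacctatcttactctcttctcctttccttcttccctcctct
The Myl7 window held 1 M-CAT match and a CArG box, which reads as a match on both strands, and the Myl3 window held 2 M-CAT matches, 1 on each strand, and a CArG box. RefSeq windows were at hand for 34 of the 38 genes, 45 in all since some genes have several starts, and 32851 for all genes. CArG boxes were present in 8 of the 45 windows (17.8%), from Actc1, Fhl2, Ldb3, Myl3, Myl7 and Nebl, against 1.63% of all windows. MEF2 sites were present in 13.3% against 3.19%, M-CAT in 26.7% against 14.7%, the GATA motif, which reads AGATAA, in 20.0% against 11.2%, and TATAAA, which can lie within a CArG box or a MEF2 site, in 15.6% against 13.6%. A match describes the letters of the window and not a bound site.

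The stress genes had a less negative median than the rest. Of the 4, 3 were called lower and 1 was not called, with a median log2 fold change of -1.95, against -3.84 for the other 34 genes, of which 33 were called lower. Nppa, encoding atrial natriuretic peptide, had 7.16, 10.1 and 10.3 CPM in MI, against 96.0, 101 and 107 CPM in sham. All MI values lay below all sham values, by 11.0-fold (log2 -3.46 ± 0.14 SE, adjusted p = 7.23e-10). Ankrd1, encoding a stress-induced protein of the titin-associated ankyrin repeat family, had 12.1, 11.7 and 11.4 CPM in MI, against 59.4, 59.3 and 54.7 CPM in sham. It was 4.92-fold lower with little spread in either group (log2 -2.30 ± 0.11 SE).

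Nppb, encoding B-type natriuretic peptide and lying beside Nppa on chromosome 4, was close to the limit of detection. It had 8, 6 and 18 counts in MI (0.424, 0.318 and 0.934 CPM), against 6, 12 and 2 counts in sham (1.48, 3.08 and 0.552 CPM). The groups overlapped, since MI 3 lay above sham 3. It was called lower (log2 -1.60 ± 0.60 SE, adjusted p = 0.0305), but the call was lost without sham 1 (log2 -1.70, adjusted p = 0.0734) and without sham 2 (log2 -0.88, adjusted p = 0.337), and it failed the low-count filter when any MI library was left out.

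Myh7, the beta myosin heavy chain of the fetal mouse ventricle, was, unlike its neighbour Myh6, not called. It had 1.70, 2.17 and 1.56 CPM in MI, against 2.47, 3.34 and 2.21 CPM in sham, from 32, 41 and 30 counts in MI and 10, 13 and 8 counts in sham. The highest MI library lay just under the lowest sham library, with a difference short of the threshold (log2 -0.57 ± 0.31 SE, adjusted p = 0.117). Of the 14 alternative fits that tested it, only scaling by total count called it lower (log2 -0.91, adjusted p = 0.0184). Myh6, the alpha heavy chain of adult mouse myocardium, averaged 19.6 ± 0.392 CPM in MI and 260 ± 25.4 CPM in sham and fell 13.2-fold (log2 -3.73 ± 0.10 SE, adjusted p = 4.64e-11). The log2 ratio of Myh7 to Myh6 was -3.13 ± 0.21 in MI and -6.37 ± 0.19 in sham, a difference of 3.24 (exact two-sided permutation p = 0.1, adjusted 0.12). In linear terms the mean ratio was 0.0922 in MI and 0.0103 in sham.

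These 2 genes lie side by side on the minus strand of chromosome 14 of GRCm38.p6, Myh7 at chr14:54970684-54994626 and Myh6 at chr14:54941921-54968017, and are close copies. Their coding sequences were 91.7% identical with 483 mismatches. Of the 50-base windows of the Myh7 transcript, 22.2% were also found in that of Myh6, and 11.2% of 100-base windows, so that reads could be divided between them in the authors' counting. The first 60 coding bases, which differ more than the coding sequences as a whole, are shown with the 14 differing bases in capitals.
Myh6: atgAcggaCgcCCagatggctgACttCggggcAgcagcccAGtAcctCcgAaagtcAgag
Myh7: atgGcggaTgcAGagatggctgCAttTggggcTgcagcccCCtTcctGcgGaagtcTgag
Written with the Myh6 base first and positions counted from the A of the start codon, the first differences are A4G, C9T, C12A and C13G. With Myh6 at 260 CPM in sham and Myh7 at 2.67 ± 0.591 CPM, a small share of misassigned reads would alter the Myh7 values, and this was not tested. For the light-chain pairs, 0% of the 50-base windows were shared.

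The start windows of Ankrd1 and Myh7 are printed beside those of the light chains above, as the 2 stress genes whose levels stood nearest between the groups apart from Nppb. That of Ankrd1 is chr19:36119795-36120094 and that of Myh7, at the upstream one of its 2 RefSeq starts, is chr14:54994577-54994876, both on the minus strand and with capitals as above.
Ankrd1: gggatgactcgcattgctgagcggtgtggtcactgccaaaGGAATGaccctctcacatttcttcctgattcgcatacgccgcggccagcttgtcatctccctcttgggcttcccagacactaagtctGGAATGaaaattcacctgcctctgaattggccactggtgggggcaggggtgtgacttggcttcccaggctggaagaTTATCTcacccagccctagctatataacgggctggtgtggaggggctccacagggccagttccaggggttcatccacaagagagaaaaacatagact
Myh7: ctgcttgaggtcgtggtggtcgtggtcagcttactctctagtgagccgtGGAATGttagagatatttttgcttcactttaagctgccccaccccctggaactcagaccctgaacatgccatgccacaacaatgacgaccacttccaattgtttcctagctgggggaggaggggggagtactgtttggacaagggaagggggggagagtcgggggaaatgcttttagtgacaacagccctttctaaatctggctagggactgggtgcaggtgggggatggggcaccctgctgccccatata
The Ankrd1 window held 2 M-CAT matches and 1 GATA match on the opposite strand (GGAATG and TTATCT), and the Myh7 window held 1 M-CAT match on the opposite strand.

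Mean log2 levels of the stress genes minus those of the other 34 genes were -1.02, -0.95 and -0.78 in MI, against -2.66, -2.33 and -2.88 in sham. The stress genes were therefore nearer to the rest in MI by 1.71 log2 units, although they were themselves lower or not called. Their share of the members' summed TPM was 4.24 ± 0.313% in MI and 2.84 ± 0.107% in sham. The log2 ratio of Nppb to Nppa differed by 2.48 (-3.22 ± 0.42 in MI, -5.70 ± 0.93 in sham) and that of Ankrd1 to Actn2, a Z-disc actin crosslinker, by 0.97 (1.60 ± 0.18 in MI, 0.64 ± 0.12 in sham), each with an exact two-sided permutation p of 0.1 and 0.12 after adjustment.

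**Figure D3:**
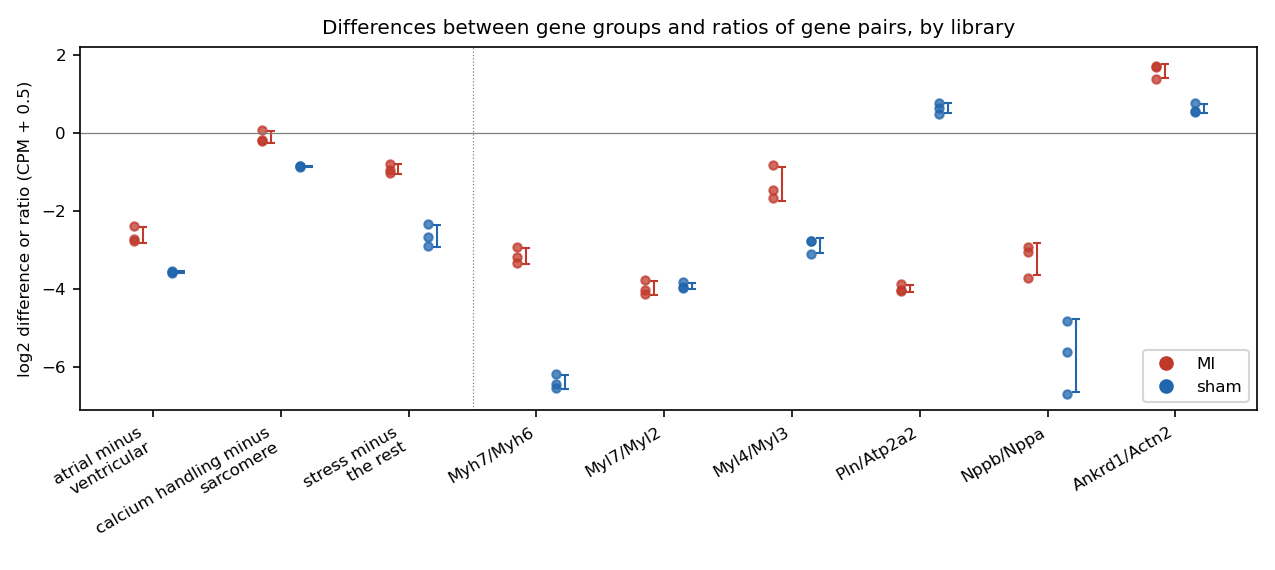
Differences between gene groups (left of the dotted line) and log2 ratios of gene pairs (right) in each library, on log2(CPM + 0.5); MI points in red stand left of sham points in blue, and bars show the mean ± SD of 3 libraries. On this scale the groups are separate for all measures but Myl7/Myl2, and Pln/Atp2a2 is the only one lower in MI without overlap.

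Of the 19 sarcomere genes, 18 were called lower and 1, Myh7, was not, with a median log2 fold change of -3.78. After the light chains Myl7 and Myl2, the most negative value belonged to Tnni3, cardiac troponin I, the inhibitory troponin subunit. Tnni3 had 9.55, 11.7 and 10.7 CPM in MI, against 267, 280.5 and 269.8 CPM in sham (25.6-fold lower, log2 -4.68 ± 0.10 SE, adjusted p = 1.36e-11). The groups lay well apart with a narrow spread in both. The other troponin subunits fell too, Tnnc1, which binds calcium (log2 -4.10), and Tnnt2, which binds tropomyosin (log2 -3.90). So did Tcap, which caps titin at the Z-disc (log2 -4.29), cardiac actin Actc1 (log2 -4.27), the Z-disc protein Myoz2 (log2 -3.94) and the thin-filament regulator Lmod2 (log2 -3.78).

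A smaller group of sarcomere genes fell less. Mybpc3, cardiac myosin-binding protein C, had 19.0, 20.2 and 21.0 CPM in MI, against 105, 86.3 and 82.8 CPM in sham. This was 4.56-fold lower without overlap (log2 -2.19 ± 0.12 SE, adjusted p = 6.75e-09). Tpm1 averaged 184 ± 6.51 CPM in MI and 913 ± 35.9 CPM in sham and fell 4.97-fold (log2 -2.31 ± 0.08 SE). Smaller falls than the list's median were also seen for Ttn, the giant spring of the sarcomere (log2 -2.93), the nebulin-related Nebl (log2 -3.16), the Z-disc protein Ldb3 (log2 -3.26) and Actn2 (log2 -3.38).

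Among the 6 calcium-handling genes, 5 were called lower and Atp2a2 was not called, with a median log2 fold change of -3.61. Pln, encoding phospholamban, the inhibitor of SERCA2, had 26.0, 24.1 and 22.8 CPM in MI, against 506, 538 and 548 CPM in sham. It was 21.8-fold lower (log2 -4.45 ± 0.09 SE, adjusted p = 9.3e-12), and its groups did not overlap. Ryr2, the calcium release channel, had 1.49, 0.847 and 1.09 CPM in MI, against 16.8, 17.5 and 13.0 CPM in sham (13.7-fold lower, log2 -3.78 ± 0.24 SE). Both groups were low for so long a transcript and were still separate. Casq2, encoding calsequestrin, which binds calcium inside the reticulum, had 16.3, 12.3 and 13.7 CPM in MI, against 81.9, 70.4 and 67.4 CPM in sham (5.19-fold lower, log2 -2.38 ± 0.13 SE). Trdn, encoding triadin, which links calsequestrin to the release channel, fell by 3.44 on the log2 scale.

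Atp2a2, which encodes SERCA2 and is also used by cells other than muscle, was the one member with higher values in MI. It had 434, 359 and 374 CPM in MI, against 356, 343 and 321 CPM in sham. The lowest MI library lay just above the highest sham library, and MI 1 was the highest. The difference was 1.14-fold (log2 0.19 ± 0.09 SE, adjusted p = 0.0687) and not called. Its direction depended on the scaling, being -0.16 when libraries were scaled by total count. It was called higher under 5 alternatives, among them without MI 1 and without MI 2. The log2 ratio of Pln to Atp2a2, the inhibitor to its pump, was -3.97 ± 0.09 in MI and 0.64 ± 0.13 in sham, a difference of -4.61 (exact two-sided permutation p = 0.1, adjusted 0.12). In linear terms there were 0.0626 Pln counts per Atp2a2 count in MI and 1.56 in sham.

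Mean log2 levels of the calcium-handling genes minus those of the sarcomere genes were 0.07, -0.20 and -0.18 in MI, against -0.85, -0.84 and -0.83 in sham, a difference of 0.74. Leaving out Atp2a2 brought it to 0.16. MI 1 was the highest of the 3 MI libraries, and the groups did not overlap. Both lists' medians, -3.61 and -3.78, lay close to each other and far from the -0.01 of all tested genes.

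All 3 genes of energy and oxygen supply fell, with a median log2 fold change of -4.53. Ckmt2, the mitochondrial creatine kinase of sarcomeric muscle, had 2.02, 2.38 and 1.71 CPM in MI, against 64.6, 62.9 and 67.9 CPM in sham (31.8-fold lower, log2 -4.99 ± 0.14 SE, adjusted p = 5.81e-11). Mb, the oxygen-binding myoglobin, had 33.5, 48.7 and 47.4 CPM in MI, against 999.5, 1024 and 972 CPM in sham (23.1-fold lower), and MI 1 was its lowest library. Ckm, the cytosolic muscle creatine kinase, had 4.35, 4.45 and 5.19 CPM in MI, against 92.3, 93.7 and 85.3 CPM in sham (19.4-fold lower). None of the 3 overlapped between groups.

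The other 7 genes all fell, with a median of -3.73 and a range of -5.01 to -1.73. Lrtm1, a leucine-rich repeat transmembrane protein, had 0.637, 0.530 and 0.571 CPM in MI, against 20.5, 18.7 and 17.7 CPM in sham (32.2-fold lower). Smpx, a small muscle protein, had 1.22, 1.01 and 1.14 CPM in MI, against 23.8, 27.5 and 21.3 CPM in sham (21.4-fold lower). Csrp3, the muscle LIM protein of the Z-disc, had 3.93, 5.45 and 4.78 CPM in MI, against 77.0, 67.5 and 74.8 CPM in sham (15.5-fold lower). These 3 were separate in every library, and the LIM protein Fhl2 (13.2-fold lower) and the small heat shock protein Hspb7 (11.8-fold lower) lay close behind. At the other end, Akap6, which anchors protein kinase A at the nuclear envelope, had 5.20, 3.39 and 3.37 CPM in MI, against 15.8, 14.6 and 20.4 CPM in sham (4.24-fold lower, log2 -2.08 ± 0.22 SE). Xirp2, an actin-binding protein of the intercalated disc, had 9.12, 8.68 and 8.15 CPM in MI, against 33.9, 28.5 and 23.7 CPM in sham (3.33-fold lower, log2 -1.73 ± 0.15 SE).

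Longer genes of the list had less negative fold changes than shorter ones, by medians with no test. The 19 genes with an exon length up to the median of 2.00 kb had a median log2 fold change of -4.27, and the 19 longer genes one of -3.16. Over all tested genes, split at the same length, the medians were -0.04 and -0.00. Across the 38 genes, log2 exon length and log2 fold change had a Pearson's r of 0.41 and a Spearman's rho of 0.47, a description across genes that share the same 6 libraries and are not independent. Length also moved with the deviation of library MI 1 from the other 2 MI libraries: MI 1 was the lowest MI library for 13 of the 19 shorter genes and the highest for 11 of the 19 longer ones (r 0.65, rho 0.68 over the 38 genes; r 0.50, rho 0.53 over 13062 tested genes). With MI 1 left out of the fit, length and log2 fold change had r 0.43 and rho 0.49 over 37 genes. The level in sham moved with the fold change as well (r -0.43, rho -0.49 with log2 TPM). Since the sham level enters the fold change with a minus sign, a negative r can arise from that alone. The parts of length and of level were not tested against each other.

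**Figure D4:**
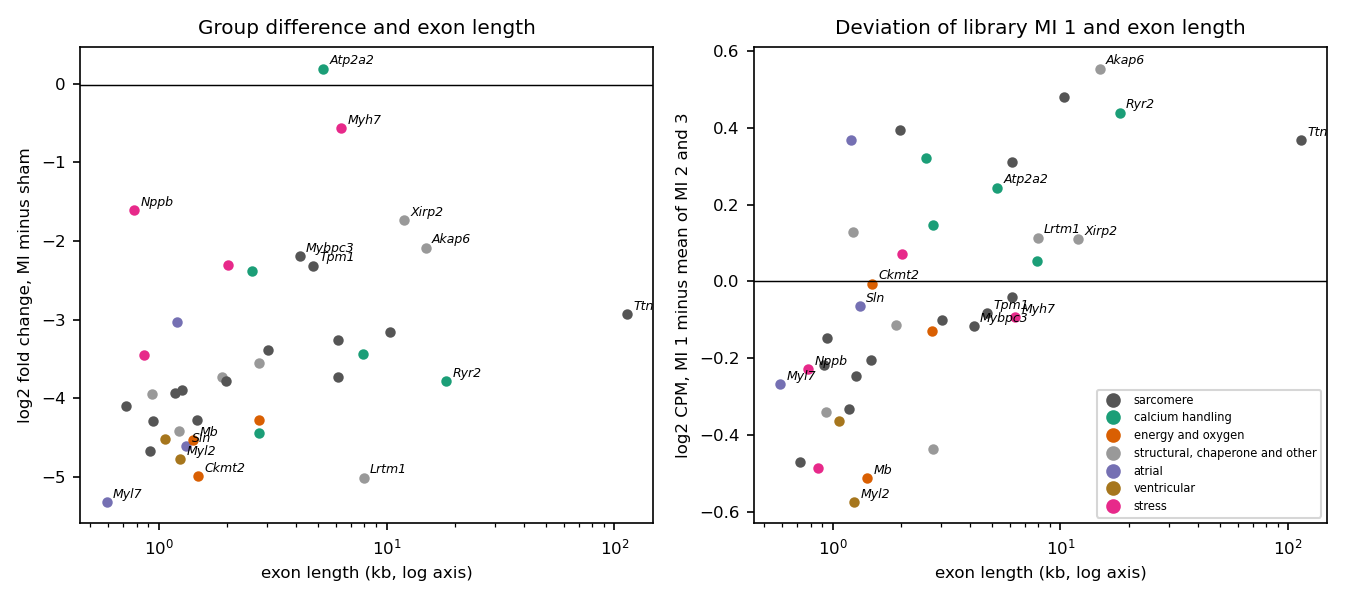
Exon length of the 38 genes in kb on a log axis against the log2 fold change, MI minus sham (left), and against the log2 CPM of MI 1 minus the mean of MI 2 and MI 3 (right); each point is a gene, coloured by role. Points tend to rise with length in both, with r 0.41 on the left and r 0.65 on the right.

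Other genes linked to heart muscle, not all of them particular to it, were then set beside the members. They were 110 genes in 6 lists, of which 98 were tested. Of these, 74 were called lower, 17 higher and 7 were not called, with a median log2 fold change of -2.12. With total-count scaling 11 were called higher. The other sarcomere and Z-disc genes were closest to the members, with 24 of 26 lower, 1 higher and a median of -2.82. Myom2, an M-band protein (log2 -3.75), Mylk3, the cardiac myosin light chain kinase (log2 -3.81), and the chaperone Cryab (8.02-fold lower) fell. The gene that rose, Alpk2, an alpha kinase, lost its call under total-count scaling and averaged 5.21 ± 0.448 CPM in MI and 2.78 ± 1.09 CPM in sham (log2 0.91, adjusted p = 0.0111). All 7 tested atrial or ventricular genes outside the members fell (median -2.75), among them Dkk3 (log2 -2.70), the atrial potassium channel subunit Kcnj3 (log2 -4.42) and the light chain Myl1 (log2 -2.75). Some of these 7 genes, Kcnj3 among them, were also counted in another of the 6 lists.

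Calcium and excitation genes outside the members were mixed, with 16 of 24 lower, 6 higher and 2 not called (median -1.56). The reticulum proteins Hrc (log2 -2.84) and Srl (log2 -2.92) and the potassium channel subunit Kcnip2 (log2 -4.07) fell. Slc8a1, the sodium-calcium exchanger, rose to 88.2 ± 13.6 CPM in MI, against 30.8 ± 2.01 CPM in sham (log2 1.52 ± 0.13 SE), and Camk2d, a calcium-calmodulin kinase, and Asph rose by 1.25 and 1.04 on the log2 scale. Ryr1, the ryanodine receptor of skeletal muscle, named after its values were seen, averaged 3.16 ± 0.455 CPM in MI and had 0 counts in every sham library. Against 3 counts over the sham group (0.259 CPM) it was at least 12.1-fold higher in MI.

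Muscle energy genes outside the members were lower for 14 of 15 (median -2.24), among them Fabp3 (log2 -3.62), which carries fatty acids, and the muscle forms of cytochrome oxidase subunits Cox7a1 (log2 -3.91) and Cox6a2 (log2 -4.36). The exception was Adssl1, an adenylosuccinate synthase, with 89.6 ± 11.1 CPM in MI and 11.0 ± 1.63 CPM in sham (8.09-fold higher). Of 16 tested cardiac transcription factors and coactivators, 12 were lower and 3 higher (median -1.56). Ppargc1a, a coactivator of mitochondrial genes (log2 -3.93), and Hopx (log2 -1.54) fell, while Mef2d (log2 1.04), Mef2a (log2 0.48) and Esrra (log2 0.47) rose, though under total-count scaling 1 of these 3, Mef2d, was still called.

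Hypertrophy and stress genes outside the members had no common direction, with 6 of 14 higher, 5 lower and 3 not called (median 0.08). These counts lay near the background, as 36.4% of all tested genes were called higher and 36.9% lower. Total-count scaling turned the median of this list to -0.28 and its calls to 3 higher and 7 lower. Gdf15, a stress-induced cytokine made by many cell types, rose to 273 ± 41.0 CPM in MI, against 15.1 ± 2.38 CPM in sham (18.0-fold higher, log2 4.17 ± 0.15 SE). The small heat shock proteins Hspb1 (log2 -2.56) and Hspb8 (log2 -2.73) and the ankyrin repeat gene Ankrd23 (log2 -2.76) fell.

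**Figure D5:**
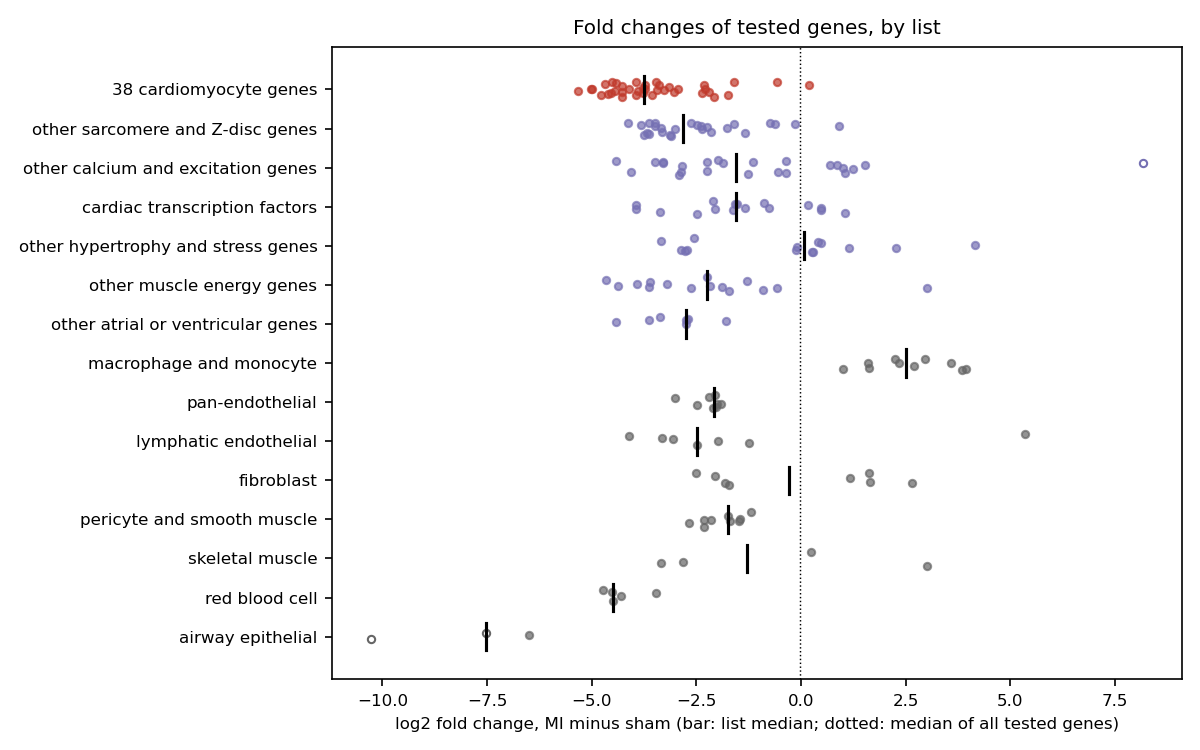
Log2 fold change (MI minus sham) of the tested genes in each list. The 38 cardiomyocyte genes are at the top, above 6 further lists of genes linked to heart muscle and 8 lists of markers of other cell types. Bars are list medians, the dotted line is the median of all tested genes, and open symbols mark genes with 0 counts in a group. The 38 genes centre on -3.75, the macrophage markers on 2.52 and the red blood cell markers on -4.49.

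Markers of other cell types also differed between the groups, some in the direction of the members and some against it. Their part in the results was not tested. All 10 macrophage and monocyte markers rose (median log2 fold change 2.52). All 8 pan-endothelial markers fell (median -2.08, summed 1625 to 1647 CPM in MI and 7055 to 7130 CPM in sham). So did 9 of 9 pericyte and smooth muscle markers (median -1.73, 832 to 841 CPM in MI and 3218 to 3238 CPM in sham). Des, among these 9, was also counted with the other sarcomere and Z-disc genes. Of the 7 lymphatic markers (median -2.48, summed 252 to 262 CPM in MI and 388 to 402 CPM in sham), 6 fell, with a sum of 52.9 to 56.9 CPM in MI and 382 to 397 CPM in sham. The other, Pdpn, rose to 202 ± 7.01 CPM in MI, against 4.93 ± 0.960 CPM in sham. All 5 red blood cell markers fell (median -4.49, 61.2 to 88.2 CPM in MI and 1735 to 1798 CPM in sham). Fibroblast markers were split, with 4 higher and 4 lower (median -0.28, 2182 to 2226 CPM in MI and 1400 to 1416 CPM in sham). Of the 8 skeletal muscle markers, which overlap in use with stressed heart muscle, 4 were tested, 2 were lower and 1 higher. The list's sum was 6.95 to 8.37 CPM in MI and 24.7 to 35.7 CPM in sham, and Myh4 had 0 counts in MI. Most of the sham sum was Acta1 (23.8 ± 4.15 CPM in sham, 2.32 ± 0.473 CPM in MI). Acta1 was also counted with the other sarcomere and Z-disc genes and the other hypertrophy and stress genes. The gene that rose, Tnni2, was 8.09-fold higher in MI. Airway markers summed to 0.0519 to 0.212 CPM in MI and 22.0 to 24.4 CPM in sham, and Bpifa1 and Scgb3a2 had 0 counts in MI.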

How the data were processed

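RNA sequencing on a BGISEQ-500 gave 6 libraries, grouped and numbered by their titles. Per the labels, reads were mapped to GRCm38 (GRCm38.p6 per the submitters' processing notes, which also name Agilent Feature Extraction 9.1 with no role); aligner, counting program, annotation, strand setting and filters are not given in the sources used here. Per the file headers, the deposited table held read counts with decimals (estimated counts), not scaled by the authors, and FPKM, TPM and a scaled read count (a signal) computed by the authors. Counts and TPM were used here, and the FPKM and signal columns deposited by the authors were not.

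Estimated counts were rounded and tested with edgeR 4.0.16 in R 4.3.3 (filterByExpr, trimmed mean scaling, quasi-likelihood test, group as the only term, Benjamini-Hochberg over the 13370 genes tested). SE was derived from the fold change and the quasi-likelihood F. The fit was tested on simulated data. DESeq2 1.42.0, limma 3.58.1, other scalings and filters, thinned MI libraries, the replicate block and leaving out each library were alternatives. Gene-pair ratios used log2(CPM + 0.5) and exact permutation tests; differences between lists have no test. Positions and promoters came from RefSeq (GRCm38.p6), and exon lengths and transcripts from GENCODE. The members and lists were chosen with earlier results of these data known. Values in every library are given for atrial, ventricular, stress and uncalled members and, in each other role group, the 3 most negative and 2 most positive; from other lists, up to 3 genes of smallest p and up to 3 against the majority are named.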

Additional observations from a re-analysis of the deposited data

How the results depend on the processing

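Between 35 and 37 members were called lower under all 16 alternatives, though Nppb was tested in 11 of them and Myh7 in 14. The 37 came with total-count scaling, under which 6628 of all 13370 tested genes were called lower, beside 4940 in the main fit. Members called higher numbered 1 (Atp2a2) under DESeq2's size factors in edgeR, under DESeq2 and with no low-count filter, and 0 to 1 with each library left out. Scaling by total count moved the members' median to -4.10 and turned Atp2a2 to -0.16. It moved the median of the 98 tested genes of the other lists to -2.47 and their count called higher to 11. That count was 6 when a fold above 2 was tested and 10 with limma on log2(TPM + 1). The median of these genes was -1.68 with the stricter filter, which tested fewer genes, -1.96 with MI thinned to sham depth, -1.51 on log2(TPM + 1), and -2.13 to -1.89 with each library left out. The atrial minus ventricular difference was 0.64 and 1.46 with 0.1 and 2 CPM added and 0.40 in TPM, and the calcium handling minus sarcomere difference 0.57 and 0.98 with 0.1 and 2 CPM. The Myl7/Myl2 difference was 0.75 with 2 CPM, -0.43 with 0.1 CPM, -0.37 in TPM and -0.16 to 0.02 with each library left out, the highest value (0.0161) being that without MI 3. The Myl4/Myl3 difference was 0.39 in TPM and Ankrd1/Actn2 0.70 with 2 CPM. Causes of these moves were not tested. Same-numbered MI and sham libraries did not deviate together (r -0.05, -0.02 and 0.02 over genes). With so few libraries, this cannot show whether samples were handled in numbered pairs. With the replicate block 36 members were called lower. Nppb, with 6 to 18 counts a library in MI and 2 to 12 in sham, was not called when a fold above 2 was tested (adjusted p = 0.186). With 1 gene left out at a time, a check chosen after seeing the data, the atrial minus ventricular difference was 0.67 without Myl4 and 1.31 without Myl7, the calcium handling one 1.08 without Pln, 0.92 without Sln and 0.16 without Atp2a2, and that of the stress genes 2.26 without Nppa and 1.27 without Myh7.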
